A study of Rattus norvegicus with 79 samples.

Results

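Synaptic vesicle and fusion genes, 10 whose products sit on the vesicles or drive their fusion with the nerve terminal membrane, were followed in hippocampal CA1 of young and aged rats. The members were Syp, Sv2a, Rab3a, Syn1, Syn2, Vamp2, Syt1, Snap25, Stx1a and Napa. They were found by their gene symbols in the table that pairs the probe sets of the array with genes. The 10, of 4737 genes named by 1 symbol on the array, had 18 of the 8799 probe sets, and 5 of the genes had 2 or more. A probe set is a group of short probes designed for a transcript, and some may also read related transcripts. Probe sets of the same gene can come from the same sequence, as the 2 of Napa do by their names (X89968_at and X89968_g_at). Of the 18, 16 were among the 5244 probe sets bright enough to be tested. The Syt1 probe set and 1 of the 4 Snap25 probe sets fell below that limit.

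The study measured RNA from the CA1 cell layer of male Fisher-344 rats aged 3 or 24 months after water maze work, with 1 array for each animal and 79 animals. The young groups were 3 rats left in their cages, 6 yoked rats that swam without a platform, 4 rats trained to a visible platform and 6 rats trained to a hidden platform. The aged groups were 5 cage controls, 8 yoked rats, 8 visible platform rats, and hidden platform rats in 3 groups: 13 unimpaired and 10 impaired in learning, and 16 marked B, a letter the labels do not explain. Rats were killed 1 day after the last trial, and the RNA of a small punch went through 2 rounds of amplification. The punch was whole tissue, so fewer cells of a type and less RNA per cell cannot be told apart. The values are MAS5 signals, a brightness on a linear scale, and differences below are in log2(signal + 15), a scale that understates the change of dim probe sets.

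A nerve terminal stores transmitter in vesicles that are tethered, docked at the release site, fused when calcium enters, and then retrieved. Fusion is driven by SNARE proteins, one kind on the vesicle and others on the plasma membrane, which coil together and are later pulled apart by NSF and its adaptor. In the hippocampus several of the vesicle proteins are made mainly by neurons and are widely used as markers of presynaptic terminals. Their mRNA, however, lies mainly in the cell body. NSF and its adaptor, encoded by Napa, are not particular to neurons or to terminals.

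The start regions of the genes are shown because 6 of the genes rose with age by the test given further on. The RefSeq table (GRCr8) held a promoter window, 250 bases before to 50 after the start, for 9 of the 10 genes, Snap25 being the other. The 5 windows below belong to genes named in the results: Syp, Sv2a, Vamp2 and Napa, which rose with age, and Syn1, which did not pass the test. Capitals mark GGGCGG on either strand, the GC box bound by Sp family factors, and TGACGTCA, the full cAMP response element.
Syp (chrX:17536400-17536699, minus strand): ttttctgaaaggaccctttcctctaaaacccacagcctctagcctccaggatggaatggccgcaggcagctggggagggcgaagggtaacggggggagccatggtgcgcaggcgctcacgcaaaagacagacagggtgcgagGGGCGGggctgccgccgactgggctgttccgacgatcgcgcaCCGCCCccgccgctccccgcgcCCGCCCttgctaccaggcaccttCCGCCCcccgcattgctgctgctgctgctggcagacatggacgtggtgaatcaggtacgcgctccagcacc
Sv2a (chr2:186430113-186430412, plus strand): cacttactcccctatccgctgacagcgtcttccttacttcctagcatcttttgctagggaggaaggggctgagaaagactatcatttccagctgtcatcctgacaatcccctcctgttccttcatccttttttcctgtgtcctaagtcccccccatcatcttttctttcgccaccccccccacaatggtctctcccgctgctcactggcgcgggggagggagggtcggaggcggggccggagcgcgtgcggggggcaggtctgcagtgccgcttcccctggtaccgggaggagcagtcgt
Vamp2 (chr10:54292539-54292838, plus strand): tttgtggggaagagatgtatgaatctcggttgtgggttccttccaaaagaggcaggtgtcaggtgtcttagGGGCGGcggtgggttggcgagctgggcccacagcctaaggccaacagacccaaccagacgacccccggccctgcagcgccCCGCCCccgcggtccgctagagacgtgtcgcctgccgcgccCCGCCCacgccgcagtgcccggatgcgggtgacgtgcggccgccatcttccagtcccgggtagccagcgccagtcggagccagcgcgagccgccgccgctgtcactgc
Napa (chr1:85915185-85915484, plus strand): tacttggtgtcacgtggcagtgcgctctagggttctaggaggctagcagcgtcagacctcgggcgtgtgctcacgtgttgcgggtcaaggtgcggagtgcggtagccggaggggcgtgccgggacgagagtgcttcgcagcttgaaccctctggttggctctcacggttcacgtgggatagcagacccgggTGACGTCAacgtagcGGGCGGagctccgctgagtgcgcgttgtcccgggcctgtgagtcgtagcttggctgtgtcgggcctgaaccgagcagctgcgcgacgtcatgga
Syn1 (chrX:3725495-3725794, plus strand): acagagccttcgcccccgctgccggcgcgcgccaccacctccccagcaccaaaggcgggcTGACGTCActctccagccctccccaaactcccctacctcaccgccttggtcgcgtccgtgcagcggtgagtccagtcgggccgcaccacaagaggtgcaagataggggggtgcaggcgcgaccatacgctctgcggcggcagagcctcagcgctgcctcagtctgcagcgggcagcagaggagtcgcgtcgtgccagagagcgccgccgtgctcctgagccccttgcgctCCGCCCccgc
GGGCGG lay in 8 of the 9 windows, against 33.1% of 33469 windows of the same length, and Sv2a was the exception. TGACGTCA lay in 2 of 9, Napa and Syn1, against 1.83% of all windows. The motifs did not share bases in any printed window. GCGGGGGCG, the letters read by the Egr factors, which can share bases with a GC box, lay in 5 of 9 windows (Syp, Syn1, Syn2, Syt1 and Vamp2), against 2.73% of all. TATAAA lay in 0 of 9, against 14.2% of all. The median share of bases that were G or C was 67% in the 9 windows and 51.7% in all windows. These matches describe letters only. Sv2a, with neither capitalised motif, and Syp, with 4 GC boxes, both passed the age test given below.

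The tissue label was checked on marker genes. The mean signals of 12 pyramidal neuron markers lay at percentiles of all probe sets from 38.33, for Camk2a, which was too dim to be tested, to 99.6, for Nrgn. Astrocyte markers ran from 14.63 for Gja1 to 99.37 for Sparcl1, oligodendrocyte markers from 66.03 to 97.55 and interneuron markers from 16.12 to 94.55. Microglia markers ran from 18.89 for Itgam to 97.32 for Ctss, endothelial and mural markers from 35.66 to 80.11 and choroid plexus markers from 6.18 to 91.66. Some markers of neurons and of glia were thus among the bright probe sets. Others were too dim to be tested: Camk2a, Vip, Gja1, Itgam, Csf1r, Cd74, Vwf and Aqp1. None of the markers listed for 7 cell types was at 0 on any array. Of the 79 arrays, 14 had a median Spearman correlation with the others under 0.85: 2 of 3 young cage, 2 of 4 young visible platform, 1 of 6 young hidden platform, 1 of 5 aged cage, 1 of 8 aged yoked, 4 of 8 aged visible platform, 1 of 13 unimpaired and 2 of 10 impaired arrays. Of these, 7 also had a control ratio under 1 (log2 of the signal of the 3' over that of the 5' probe sets of beta-actin and GAPDH), where the median of all arrays was 3.17. No array outside the 14 had so low a ratio. Counts of members are therefore given with and without the 14 arrays.

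**Figure D1:**
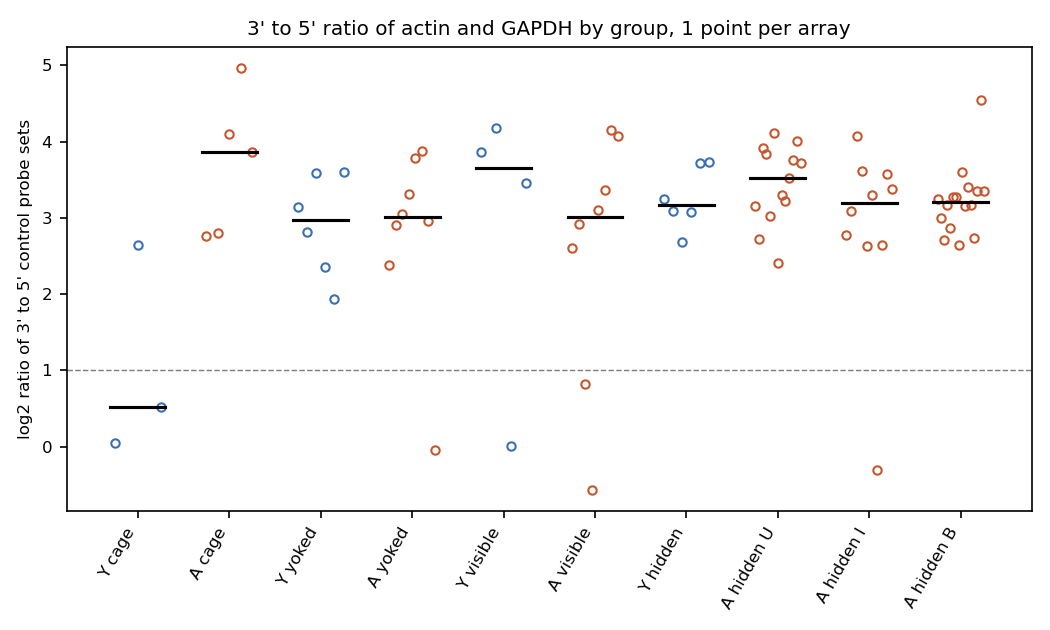
Control ratio (log2 of 3' over 5' signal, mean of beta-actin and GAPDH) on each of the 79 arrays, by group (Y young, blue; A aged, red; U unimpaired, I impaired). Black lines are group medians and the dashed line is at 1; the 7 arrays under it include 2 of the 3 young cage controls, whose group ran from 0.046 to 2.65.

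The question set by the series is how CA1 differs between aged and young rats. Across the 4 treatments, 44 aged and 19 young rats were compared with treatment held in the fit. Of the 16 member probe sets tested, 7 rose with age and 0 fell, where 3.20% of all 5244 probe sets rose and 1.93% fell, 5.13% in all (limma, Benjamini-Hochberg adjusted p under 0.05). The 7 belonged to 6 genes: the vesicle proteins Syp, Sv2a and Rab3a, the synapsin Syn2, the vesicle SNARE Vamp2, and Napa with both of its probe sets. The median of the 16 differences was 0.47, where the median over all probe sets was -0.05, and 14 of the 16 lay above 0, as did 43.8% of all. Because the members were chosen with earlier results of these data known, setting them against all probe sets only describes them. Without the 14 arrays of low correlation 8 of 16 rose, the second Vamp2 probe set added, where 13.9% of all probe sets passed. The 3 Snap25 probe sets and Syn1 lay between -0.02 and 0.14 and did not pass the test.

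Syp encodes synaptophysin, a major membrane protein of small synaptic vesicles. On its probe set (X06655_at) the 19 young rats ran from 317.5 to 2916.6 with a median of 1217.0, and the 44 aged rats from 252.6 to 3869.7 with a median of 2481.7. The groups overlapped, and 39 of the 44 aged rats lay above the mean of the young rats of their own treatment. The difference was 0.88 ± 0.21 (SE), limma adjusted p = 0.00665. It stayed past the threshold in each of the 63 fits that left out 1 array, with values between 0.77 and 0.94. Without the 14 arrays of low correlation it was 0.81 ± 0.15.

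Sv2a encodes a vesicle glycoprotein that is the binding site of the antiepileptic drug levetiracetam. Its probe set (L05435_at) ran from 194.3 to 1343.1 in the young rats, with a median of 649.5, and from 255.3 to 2010.6 in the aged rats, with a median of 1247.2. Here 38 of 44 aged rats lay above their young mean. The difference of 0.79 ± 0.18 had the smallest p of the members (limma adjusted p = 0.00441), and it passed in each of the 63 fits without 1 array, between 0.71 and 0.86. Without the 14 arrays it was 0.89 ± 0.14, and with the control ratio as a covariate 0.69 ± 0.14.

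Rab3a, a small GTPase that cycles on and off vesicles and regulates docking, had 1 probe set (X06889cds_at). It ran from 39.1 to 470.7 in the young rats, with a median of 121.0, and from 53.7 to 860.5 in the aged rats, with a median of 200.4. Only 27 of 44 aged rats exceeded their young mean, and the difference was 0.77 ± 0.22 (limma adjusted p = 0.0262). Within hidden platform rats, 10 of 23 aged rats lay above the young mean and the difference was 0.16 ± 0.33. It passed in 61 of the 63 fits without 1 array, and without the 14 arrays it was 0.83 ± 0.20.

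Syn2 encodes synapsin II, a phosphoprotein that tethers vesicles in the reserve pool. Its 3 probe sets did not read alike. The probe set rc_AI145494_g_at rose by 0.83 ± 0.25 (limma adjusted p = 0.0373): young rats ran from 12.5 to 395.0 with a median of 101.9, aged rats from 18.6 to 665.4 with a median of 214.2, and 35 of 44 aged rats exceeded their young mean. Without the 14 arrays it rose by 0.86 ± 0.22. The other two, M27925_at and rc_AI145494_at, differed by 0.30 ± 0.32 and 0.22 ± 0.29 and did not pass. Syn1, the related synapsin I, had 1 probe set: young rats ran from 369.6 to 1368.9 (median 560.9) and aged rats from 217.2 to 1869.2 (median 597.0). Its difference was -0.02 ± 0.15, the narrowest of the members, and 19 of 44 aged rats lay above their young mean.

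Vamp2, the SNARE on the vesicle, had 2 probe sets. On M24105_at young rats ran from 157.7 to 5332.3 with a median of 2241.6, and aged rats from 203.2 to 6925.2 with a median of 3492.0. The difference was 0.95 ± 0.29 (limma adjusted p = 0.0416), with 33 of 44 aged rats above their young mean. Of the 63 fits without 1 array, 42 kept it past the threshold, and without the 14 arrays it was 0.76 ± 0.22. The second probe set, rc_AI101103_s_at, gave 0.54 ± 0.19 (adjusted p = 0.0777) and did not pass, but it passed without the 14 arrays at 0.70 ± 0.17 (limma adjusted p = 0.00500).

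Syt1 encodes synaptotagmin 1, the calcium sensor of fast release. Its probe set (X52772cds_at) was dim, from 4.4 to 400.7 over all arrays with a median of 48.8, and it was not tested. The medians were 42.3 in the young and 50.5 in the aged rats, with overlapping ranges. It gives no reading on whether Syt1 changed.

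Snap25 and Stx1a encode the 2 SNAREs of the plasma membrane. The Snap25 probe set AB003991_at ran from 344.9 to 3432.7 in the young rats (median 2070.8) and from 222.2 to 3570.8 in the aged rats (median 1939.5), a difference of 0.07 ± 0.25. The other two tested, AB003991_g_at and AB003992_s_at, gave 0.07 ± 0.21 and 0.14 ± 0.23. The differences plus 2 SE came to 0.57, 0.49 and 0.60, below 0.70, the smallest difference that passed among the members. That difference, of Napa X89968_at, had bounds at 2 SE of 0.29 and 1.10, which overlap those of Snap25. The genes were not tested against each other. The fourth, U56261_s_at, fell below the brightness limit and was not tested.

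For Stx1a the 2 probe sets lay on opposite sides of 0. D10392_i_at ran from 2546.8 to 19835.6 in the young rats (median 5872.4) and from 702.3 to 15204.2 in the aged rats (median 5359.7). Its difference was -0.46 ± 0.19 (limma adjusted p = 0.138), the lowest of the 16, and 16 of 44 aged rats lay above their young mean. D12519_s_at gave 0.40 ± 0.21 (adjusted p = 0.267), with 31 of 44 above. Neither passed, and the probe sets give no common direction for the gene.

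Napa encodes alpha-SNAP, the adaptor that brings NSF to spent SNARE complexes so that they can be taken apart. X89968_at ran from 83 to 1171.6 in the young rats (median 507.2) and from 84.6 to 1453.0 in the aged rats (median 668.3), and rose by 0.70 ± 0.20 (limma adjusted p = 0.0304), with 39 of 44 above their young mean. X89968_g_at ran from 178.6 to 6910.8 (median 2857.5) and from 760.8 to 8880.4 (median 4422.5), and rose by 0.71 ± 0.23 (adjusted p = 0.0483), with 37 of 44 above. The second lay close to the threshold and passed in 17 of 63 fits without 1 array, whereas the first passed in 59. Without the 14 arrays both passed, at 0.51 ± 0.12 for the second and 0.83 ± 0.17 for the first.

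**Figure D2:**
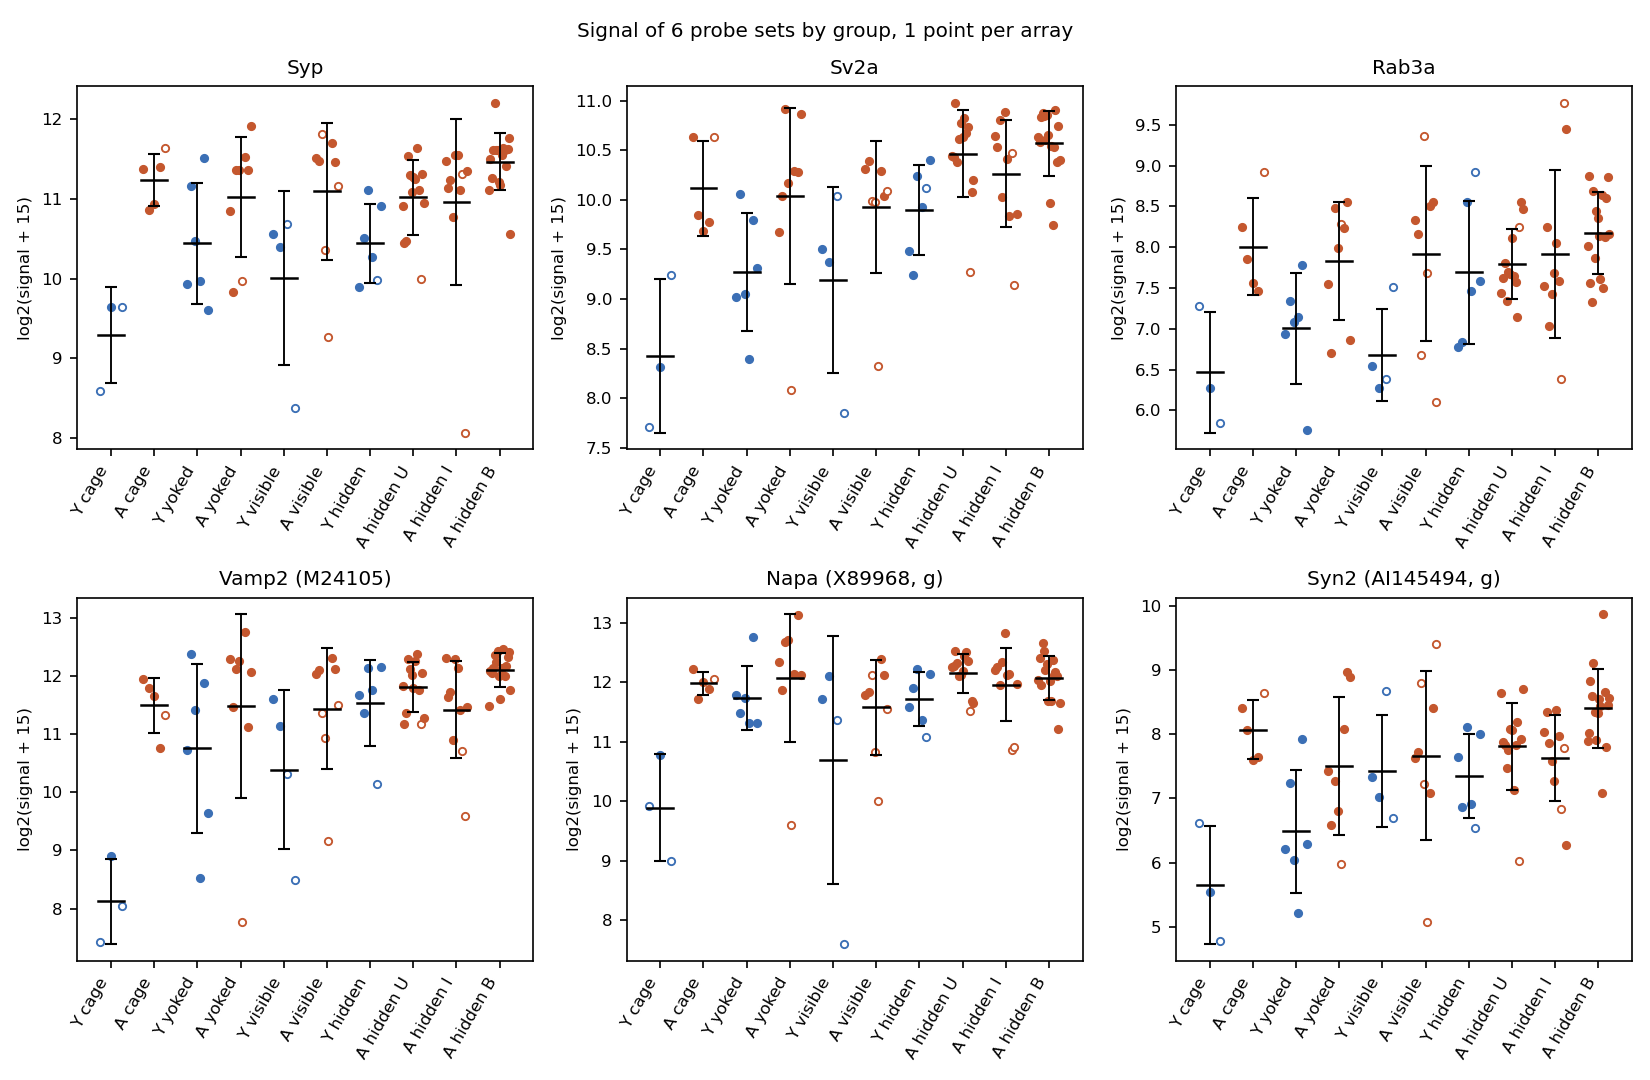
Log2(signal + 15) of 6 probe sets on each array, by group (Y young, blue; A aged, red; U unimpaired, I impaired); hollow points are arrays of low correlation, black lines and bars the group mean ± SD. The mean of the young cage controls is the lowest in all 6 panels, and the Vamp2 mean there is 8.12 ± 0.74 against 11.50 ± 0.47 in aged cage controls. Napa X89968_at, which also rose with age, is not drawn, and its lowest mean was in young visible platform rats.

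The count of 7 rested in part on the cage controls. Without them (16 young and 39 aged rats) 0 member probe sets passed and 34 of all probe sets did. The members' differences there were 0.63 for Sv2a (limma adjusted p = 0.0952), 0.72 for Napa X89968_at (0.0996), 0.69 for Syp (0.137), 0.63 for Rab3a (0.225), 0.55 for Syn2 rc_AI145494_g_at (0.382), 0.53 for Vamp2 M24105_at (0.486) and 0.48 for Napa X89968_g_at (0.418). Without both the cage controls and the arrays of low correlation 7 passed again, where 7.48% of all probe sets did. Those were Sv2a at 0.82, Syp at 0.74, Rab3a at 0.76, both Napa probe sets at 0.73 and 0.45, Syn2 rc_AI145494_g_at at 0.72 and, for Vamp2, rc_AI101103_s_at at 0.71 in place of M24105_at at 0.59. Leaving out single arrays gave counts from 2 to 7, with 3.26% to 8.28% of all called: 2 without young cage rat 74, 3 without young yoked rat 22, 58 or 60, and 4 without young cage rat 70, young visible platform rat 65, aged cage rat 99 or 100, or aged yoked rat 93 or 95. Centring each array on its median gave 0 (1.47% of all), quantile normalization 2 (1.89%) and no filter on low values 4 of 18 (2.20%), although the median of the members hardly moved (0.46 with centring and 0.45 with quantile normalization).

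A term for age by treatment asked how far the age difference varied among the 4 treatments. None of the 16 member probe sets passed (limma, moderated F test, Benjamini-Hochberg), where 0.305% of all did, and 3 had an unadjusted p under 0.05, as 14.3% of all had. Those were Vamp2 M24105_at (adjusted p = 0.0995), Syn2 M27925_at (0.161) and Syn2 rc_AI145494_g_at (0.292). With array quality weights 12 passed, where 35.3% of all did, so the count depended on that setting. Without the arrays of low correlation 0 passed, where 1.51% of all did. The differences within each treatment are therefore given side by side.

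**Figure D3:**
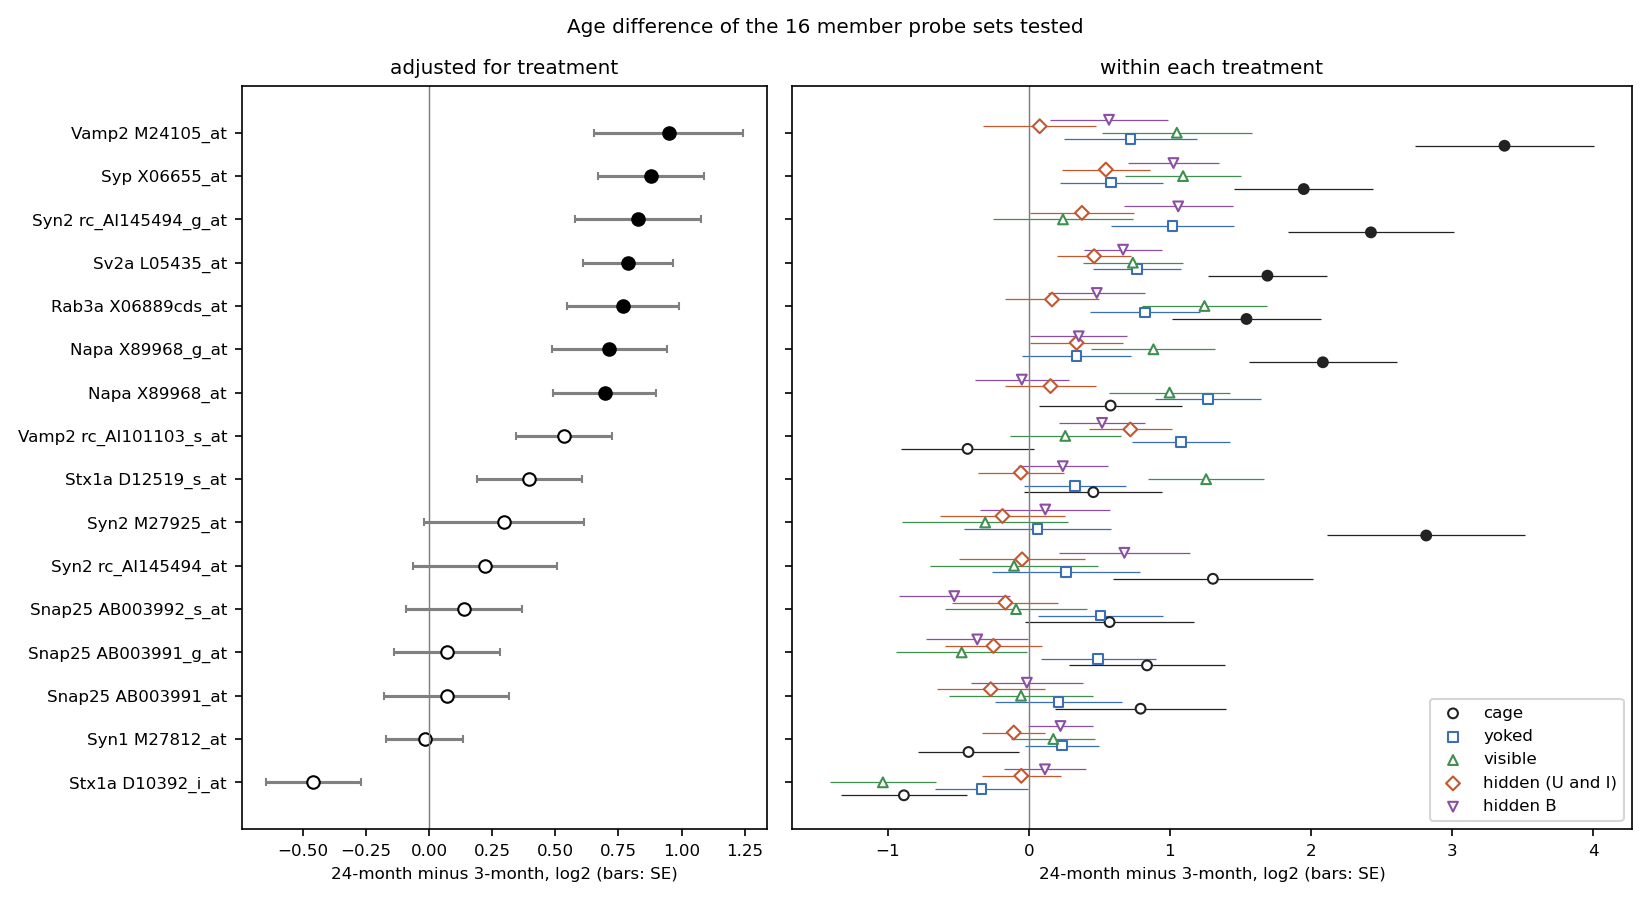
Difference of 24-month minus 3-month rats in log2(signal + 15), with SE bars, for the 16 member probe sets tested: left, with treatment in the fit; right, within cage, yoked, visible platform and hidden platform rats (unimpaired and impaired together), and for B rats against the same young hidden platform rats. Filled symbols passed limma at an adjusted p under 0.05, which within treatments happened in 7 cage control values, the highest Vamp2 M24105_at at 3.37.

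Among cage controls, 5 aged against 3 young rats, 7 of 16 member probe sets rose and 0 fell, where 12.2% of all probe sets rose and 10.6% fell, 22.8% in all (limma). For the same 7 every aged array lay above every young array, a separation that 20.7% of all probe sets had in one direction or the other. The median member difference was 1.07, against -0.27 over all probe sets. Centring on each array's median moved the median of all probe sets to 0.01 and the share of calls that were higher from 53.5% to 70.7%, and the members' count stayed at 7 higher and 0 lower.

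Vamp2 M24105_at read 157.7, 461.6 and 249.1 in young rats 70, 74 and 76. The aged rats read 1713.4, 2560.7, 3196.9, 3543.3 and 3951.9, and the difference was 3.37 ± 0.63 (limma adjusted p = 9.5e-05), the largest of the members. Its other probe set did not follow. Vamp2 rc_AI101103_s_at read 456.7, 421.4 and 2338.8 in the same young rats and 317.5 to 745.7 in the aged rats, a difference of -0.43 ± 0.47. Rat 76 alone was high there, and the groups overlapped.

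Syp read 371.3, 782.7 and 786.3 in the young cage rats and 1854.1, 1940.4, 2639.7, 2682.5 and 3170.6 in the aged ones, and rose by 1.95 ± 0.49 (limma adjusted p = 0.00276). Sv2a read 194.3, 303.9 and 592.4 against 806.3, 862.8, 905.3, 1574.3 and 1580.6, and rose by 1.69 ± 0.42 (adjusted p = 0.00238). Rab3a read 140.6, 62.4 and 42.3 against 161.2, 174.0, 216.2, 288.5 and 469.4, and rose by 1.54 ± 0.53 (adjusted p = 0.0257). In all 3 genes each aged rat exceeded each young rat, by a small margin for Rab3a.

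Syn2 passed on 2 probe sets. M27925_at read 25.2, 137.4 and 48.4 in the young rats and 176.9, 457.3, 695.0, 726.3 and 739.3 in the aged rats, a rise of 2.82 ± 0.70 (limma adjusted p = 0.00247). The other, rc_AI145494_g_at, rose by 2.43 ± 0.59 (adjusted p = 0.00193). Napa X89968_g_at read 948.5, 1734.7 and 494.2 against 3357.5, 3775.2, 4075.4, 4250.4 and 4757.1, and rose by 2.08 ± 0.52 (adjusted p = 0.00260). Its sister probe set X89968_at, which read 327.2, 133.6 and 1171.6 in the young rats and 422.1 to 675.1 in the aged ones, gave 0.58 ± 0.51 and overlapped. Stx1a D10392_i_at went the other way without passing: 18788.8, 8614.3 and 12210.2 in the young rats against 5423.1 to 9824.3, a difference of -0.89 ± 0.45 (adjusted p = 0.138).

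The arrays themselves differed in this comparison. The control ratio was 0.046, 2.65 and 0.514 on young arrays 70, 74 and 76 and ran from 2.76 to 4.96 on the aged arrays, and 2 of 3 young arrays and 1 of 5 aged arrays had a low correlation. With that ratio as a covariate 2 members passed, where 3.32% of all probe sets did, Vamp2 M24105_at at 1.94 ± 0.55 and Rab3a at 2.23 ± 0.54 (limma adjusted p = 0.0325 and 0.00967). Without the arrays of low correlation 1 young cage rat remained (74), which the fit assumed to vary like other groups, and 6 passed, where 12.1% of all did: Vamp2 M24105_at at 2.64, Syn2 rc_AI145494_g_at at 2.39, Napa X89968_at at 1.94, Sv2a at 1.67, Syp at 1.5 and Napa X89968_g_at at 1.18. Summed signals of marker lists also differed: over the 12 pyramidal neuron genes 24612 to 57294.5 in the young and 45474.1 to 170447.5 in the aged cage rats, and over the 7 interneuron genes 6795.0 to 27753.3 against 4591.9 to 7607.5. They did not overlap for 3 lists. The 9 astrocyte genes summed to 7276.9 to 43483.6 in the young and 44295.6 to 66269.5 in the aged rats, the 7 oligodendrocyte genes to 5393.6 to 7006.4 and 7026.3 to 26974.9, and the 8 endothelial and mural genes to 2556.0 to 3557.8 and 994.7 to 2291.2. The 8 microglia genes (3226.5 to 9170.0 and 5271.5 to 7881.1) and 3 choroid plexus genes (593.9 to 1644.4 and 370.2 to 4688.3) overlapped. By the test, 4 of 11 pyramidal neuron genes rose and 0 fell, 1 of 6 interneuron genes rose and 2 fell, 1 of 8 astrocyte genes rose and 0 fell, with a median of 0.86, and 2 of 7 oligodendrocyte genes rose and 1 fell, with a median of 1.09. Of 5 microglia genes 1 rose and 0 fell, of 7 endothelial and mural genes 0 rose and 1 fell, and of 2 choroid plexus genes 0 rose and 0 fell. The part of these shifts in the members' rise was not tested.

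On the 7 arrays of low ratio, 3 young and 4 aged, Vamp2 M24105_at read from 157.7 to 1932.0 where the other 72 arrays had a median of 3668.4, and only 9 of those 72 lay below 1932.0. Napa X89968_g_at read from 178.6 to 1913.4 there, with 2 of the other 72 below that. Syp read 252.6 to 1299.1 (9 of 72 below), Sv2a 194.3 to 993.7 (20 of 72) and Syn2 rc_AI145494_g_at 12.5 to 205.8 (30 of 72). Syn2 M27925_at read 24.2 to 536.2 (18 of 72), against a median of 698.1 on the others. On aged rats 67, 68, 63 and 83 it read 46.9, 32.8, 47.1 and 536.2. In contrast Vamp2 rc_AI101103_s_at read 456.7 to 2338.8 against a median of 692.0 on the others, and Syn1 595.1 to 1869.2 against 599.1. Stx1a D10392_i_at read 702.3 to 19835.6 against a median of 5347.95. On young rats 70, 76 and 65 it read 18788.8, 12210.2 and 19835.6. On aged rats 67, 68, 63 and 83 it read 5318.4, 11440.9, 7516.6 and 702.3. Of the other probe sets that rose with age, Rab3a read 42.3 to 860.5 and Napa X89968_at 327.2 to 1339.1. Their medians on the other arrays were 189.35 and 585.55. On 6 of the 7 arrays, 2 young and 4 aged, Vamp2 M24105_at lay below and Vamp2 rc_AI101103_s_at above the median of the other 72, and on the array of young cage rat 70 both lay below.

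**Figure D4:**
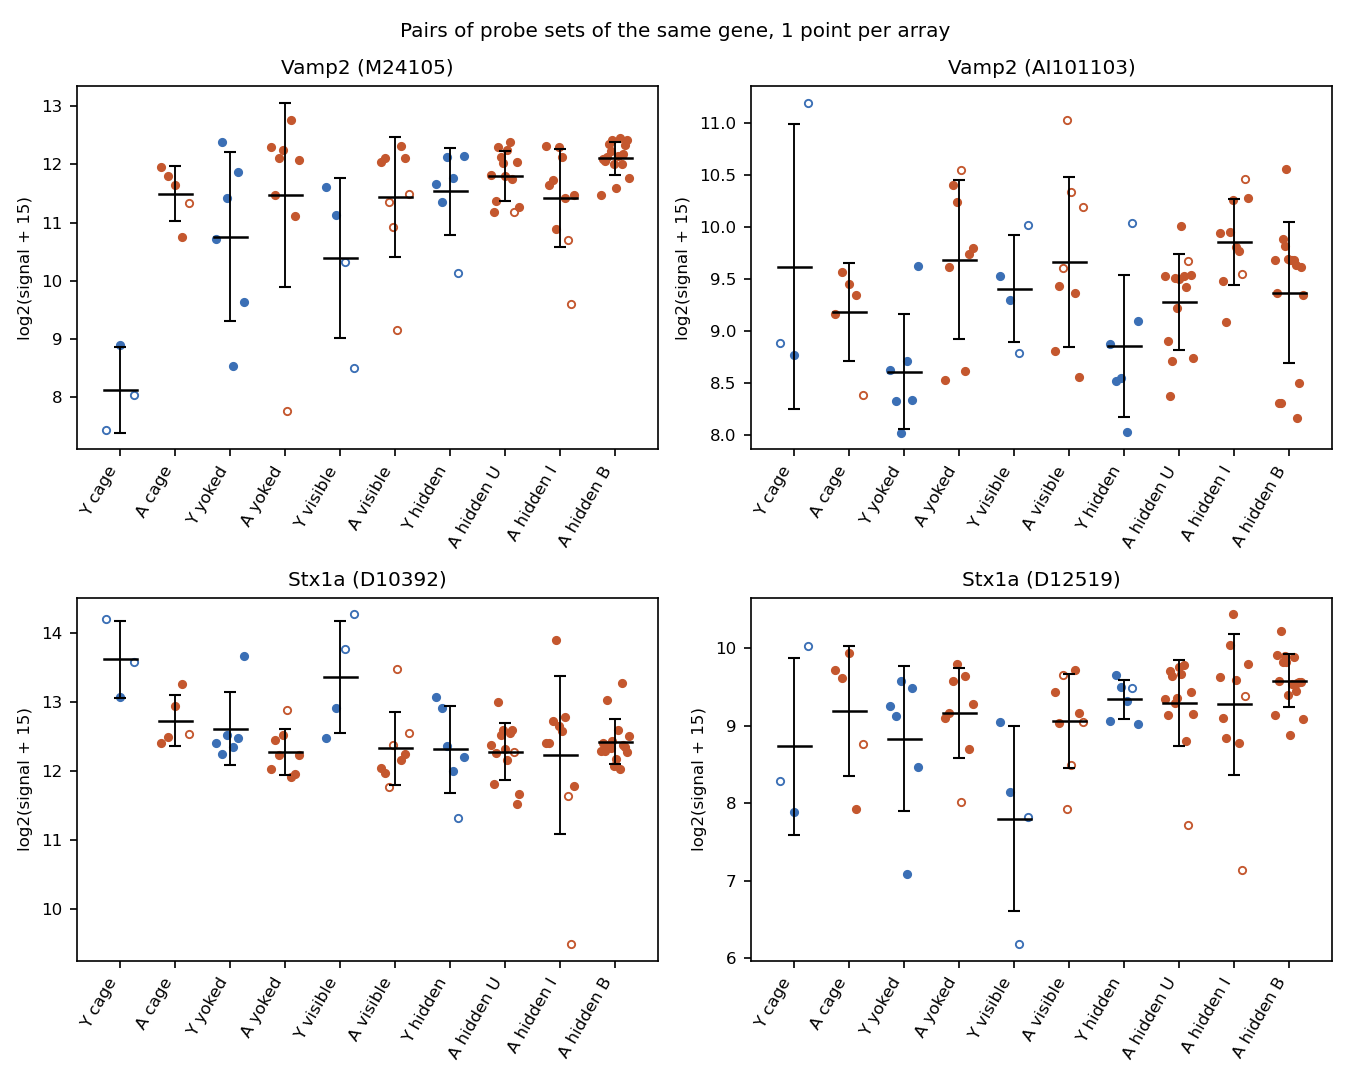
Log2(signal + 15) of the 2 tested probe sets of Vamp2 (top) and of Stx1a (bottom) on each array, by group (Y young, blue; A aged, red; U unimpaired, I impaired); hollow points are arrays of low correlation, black lines and bars the group mean ± SD. Vamp2 M24105_at was lowest in young cage controls (8.12 ± 0.74), where Vamp2 rc_AI101103_s_at was at 9.62 ± 1.37; Stx1a D10392_i_at was highest there (13.62 ± 0.56).

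Among yoked rats, 8 aged against 6 young, 0 members passed, where 0.0953% of all probe sets did, and 5 members had an unadjusted p under 0.05, as had 9.82% of all (limma). The median member difference was 0.50, against 0.06 over all, with 15 of 16 above 0, as were 55.5% of all. Napa X89968_at had the smallest p: the young rats ran from 134.6 to 679.2 (median 447.1) and the aged from 475.5 to 1339.1 (median 929.4), a difference of 1.27 ± 0.38 (adjusted p = 0.131), and 7 of 8 aged rats exceeded every young rat. Sv2a ran from 321.6 to 1049.7 (median 569.0) in the young and 255.3 to 1914.5 (median 1183.9) in the aged rats, a difference of 0.77 ± 0.31 (adjusted p = 0.338). The lowest aged value, 255.3, was that of rat 63, whose array was the 1 of low correlation in this comparison. Without that array alone 0 members passed. Without all 14 arrays of low correlation, which also changes the spread that all groups share, 7 members passed, where 9.12% of all probe sets did: Vamp2 M24105_at at 1.25 ± 0.31, Syn2 rc_AI145494_g_at at 1.24 ± 0.36, Napa X89968_at at 1.18 ± 0.30, Sv2a at 1.05 ± 0.22, Vamp2 rc_AI101103_s_at at 0.96 ± 0.30, Syp at 0.74 ± 0.24 and Napa X89968_g_at at 0.69 ± 0.20, with limma adjusted p between 0.00114 and 0.0424.

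Among visible platform rats, 8 aged against 4 young, 0 members passed, where 0.0763% of all did, and 7 members had an unadjusted p under 0.05, as had 9.21% of all. Syp read 1498.7, 1328.5, 1629.8 and 317.5 in the young rats and 603.2 to 3600.6 (median 2821.2) in the aged ones, a difference of 1.09 ± 0.41 (limma adjusted p = 0.352), and 6 of 8 aged rats exceeded every young rat. Rab3a read 78.0, 62.5, 68.7 and 166.8 against 53.7 to 645.2 (median 289.2), a difference of 1.25 ± 0.44 (adjusted p = 0.306). Among the age differences within treatments, the 2 Stx1a probe sets parted most here, at 1.26 ± 0.41 for D12519_s_at and -1.04 ± 0.37 for D10392_i_at (adjusted p = 0.258 and 0.319). With the control ratio as a covariate Syp passed at 1.25 ± 0.30 (limma adjusted p = 0.0244), where 0.553% of all probe sets passed. Of these 12 arrays 6 had a low correlation, 2 of the 4 young and 4 of the 8 aged. Without all 14 arrays of low correlation, which also changes the spread that all groups share, 0 members passed, where 0.133% of all did. In that fit Rab3a stood at 1.98 ± 0.48 (limma adjusted p = 0.0545) and Syp at 1.06 ± 0.38.

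Among hidden platform rats, 23 aged rats (unimpaired and impaired weighted equally) against 6 young, 0 members passed and 0% of all probe sets did, and 1 member had an unadjusted p under 0.05, as had 3.15% of all. The median member difference was 0.01, against -0.05 over all, with 8 of 16 above 0, as were 42.2% of all. Vamp2 rc_AI101103_s_at had that p, at 0.72 ± 0.29 (limma adjusted p = 0.999), followed in size by Syp at 0.55 ± 0.31 and Sv2a at 0.46 ± 0.26. Vamp2 M24105_at ran from 1114.5 to 4541.1 in the young rats (median 3353.9) and from 758.8 to 5331.5 in the aged (median 3446.1), a difference of 0.08 ± 0.40. Without the arrays of low correlation 0 members and 0% of all passed. The bounds at 2 SE were -0.72 and 0.88 for that probe set and -0.08 and 1.17 for Syp.

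The 16 B rats were set against the same 6 young rats, so their values share those controls. Again 0 members passed and 0% of all probe sets did, and 3 members had an unadjusted p under 0.05, as had 8.09% of all. Syp ran from 932.9 to 2210.1 in the young rats (median 1328.1) and from 1499.3 to 4733.3 in the B rats (median 3052.8). All 16 lay above the young mean and 14 above every young rat, a difference of 1.02 ± 0.32 (limma adjusted p = 0.332). Syn2 rc_AI145494_g_at gave 1.06 ± 0.39, with 15 of 16 above the young mean, and Sv2a 0.67 ± 0.28, also with 15 of 16 above. In a fit of these 22 arrays alone Syp passed (limma adjusted p = 0.0176), where 1.01% of all did. Without the arrays of low correlation 0 members passed, where 0.0763% of all did, and Syp stood at 0.93 ± 0.22 (limma adjusted p = 0.0597). None of the 16 B arrays had a low correlation. B rats also held the highest group mean for 7 of the 18 probe sets, among them Syp, Sv2a, Rab3a and Vamp2 M24105_at. The matching count over all probe sets is not given here.

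Learning was addressed by setting impaired against unimpaired aged hidden platform rats. No member passed, 0% of all probe sets passed, and 2 members had an unadjusted p under 0.05, as had 17.9% of all (limma). Syn1 ran from 217.2 to 955.5 in the 13 unimpaired rats (median 492.5) and from 477.0 to 900.1 in the 10 impaired rats (median 625.8), a difference of 0.48 ± 0.20 (adjusted p = 0.227). Vamp2 rc_AI101103_s_at ran from 317.3 to 1015.3 and from 529.2 to 1400.1, a difference of 0.58 ± 0.27 (adjusted p = 0.256). Both overlapped. Syp, Sv2a and Rab3a, which rose with age, differed by -0.06 ± 0.28, -0.20 ± 0.24 and 0.12 ± 0.30. No alternative brought a member past the threshold, the fit without the arrays of low correlation included, where 0.0381% of all passed.

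Training was addressed within each age. In aged rats the hidden platform group was set against yoked, visible platform and cage rats, and 0 of 16 members passed in each, where 0%, 0.153% and 0% of all probe sets did; 1, 3 and 0 members had an unadjusted p under 0.05, as had 4.23%, 14% and 10.6% of all. The largest differences were Syn2 M27925_at at 1.15 ± 0.40 against visible platform rats (limma adjusted p = 0.179) and Syn2 rc_AI145494_at at -0.81 ± 0.48 against cage rats. These 3 comparisons share the hidden platform rats. In young rats 0 members passed against yoked rats and 0 against visible platform rats, where 0% and 0.0191% of all did; 0 and 6 members had an unadjusted p under 0.05, as had 3.70% and 8.83% of all. Without the arrays of low correlation 0 members passed in any of these 5 comparisons, where 1.43% of all did for aged hidden platform against cage rats and 0% in the other 4.

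Young hidden platform rats differed from young cage rats in 6 member probe sets that were higher and 1 that was lower, where 10.1% of all probe sets were higher and 4.18% lower, 14.3% in all (limma). The 3 young cage rats are those of the cage comparison above, so both share their low readings. Vamp2 M24105_at was higher by 3.41 ± 0.61 (adjusted p = 0.000157): its 6 trained rats ran from 1114.5 to 4541.1 against 157.7, 461.6 and 249.1. Syn2 M27925_at ran from 566.0 to 842.8 (median 709.8) against 25.2, 137.4 and 48.4, higher by 3.30 ± 0.68. Also higher were Napa X89968_g_at by 1.82 ± 0.51, Syn2 rc_AI145494_g_at by 1.70 ± 0.57, Snap25 AB003991_g_at by 1.65 ± 0.53 and Sv2a by 1.48 ± 0.41. Stx1a D10392_i_at was lower, at -1.31 ± 0.43 (adjusted p = 0.0301).

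Markers of cell types moved in this comparison too. By the test 3 of 11 pyramidal neuron genes were higher and 0 lower, 3 of 7 oligodendrocyte genes were higher and 0 lower, with a median of 1.15, and 1 of 8 astrocyte genes was higher and 0 lower, with a median of 0.48. Of 6 interneuron genes 1 was higher and 1 lower, of 5 microglia genes 1 was higher and 0 lower, and of 7 endothelial and mural and 2 choroid plexus genes 0 passed. Summed signals overlapped in all 7 lists: the 7 oligodendrocyte genes ran from 5441.1 to 22786.8 in the trained and 5393.6 to 7006.4 in the cage rats, the 12 pyramidal neuron genes from 40316.7 to 76294.4 and 24612 to 57294.5, and the 9 astrocyte genes from 20449.4 to 46894.7 and 7276.9 to 43483.6. The part of these shifts in the members' differences was not tested.

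For that comparison the count was 3 without the arrays of low correlation (Vamp2 M24105_at, Syn2 M27925_at and Sv2a), where 5.82% of all passed, and 3 with the ratio as a covariate (Vamp2 M24105_at, Syn2 M27925_at and Rab3a), where 2.63% did. The fit without the arrays of low correlation kept only young cage rat 74 in its group, which it assumed to vary like other groups. The count was 4 without young cage rat 70, where 5.43% of all passed. Centring moved the median of all probe sets from -0.13 to 0.03 and left 4 members higher and 0 lower, where 8.54% of all passed. The Stx1a call was lost under each of these.

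The levels were also put in order across the 10 groups. Young cage controls had the lowest mean for 11 of the 18 probe sets and the highest for 2, Stx1a D10392_i_at and Syt1. The matching counts over all probe sets are not given here, so these counts only describe the members. Vamp2 M24105_at went from 8.12 ± 0.74 in young cage rats to 10.39 ± 1.37 in young visible platform rats, a step of 2.27, and from there to 12.10 ± 0.29 in B rats in small steps. That first step was the only one of its 9 larger than both neighbours' SD. Syp went from 9.29 ± 0.61 in young cage rats to 11.47 ± 0.36 in B rats, and 0 of its 9 steps exceeded the SD of its neighbours. Its 4 lowest groups were the 4 young groups. No step of the 9 exceeded the larger SD for 14 of the 18 probe sets, and 1 step did for the other 4. The means were sorted before the steps were taken, which by itself makes steps small. The steps therefore describe the order and do not show whether the groups differ.

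Other genes of the presynaptic terminal were taken from a list of 108, of which 76 were on the array and 47 were tested with 1 probe set a gene. With treatment in the fit 0 rose and 0 fell with age, and the median was 0.04, against -0.05 over all probe sets. The 4 with the smallest p were Syt12 at 0.80 ± 0.28 (limma adjusted p = 0.0712), Scamp1 at -0.40 ± 0.15 (0.104), Ap2s1 at 0.93 ± 0.37 (0.119) and Cplx2, a complexin that binds assembled SNAREs, at 0.71 ± 0.28 (0.126). On the same basis of 1 probe set a gene, 5 of the 9 members tested rose, with a median of 0.71. The members were picked with results of these data in view, so the contrast between the lists is a description. Among cage controls 5 of the 47 rose and 3 fell.

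Marker genes of cell types, in the same fit, gave 1 of 11 pyramidal neuron genes higher with a median of 0.30, 1 of 6 interneuron genes lower with a median of -0.30, and 2 of 8 astrocyte genes higher with a median of 0.33. Of 5 microglia genes 1 rose, and of 7 oligodendrocyte, 7 endothelial and mural, and 2 choroid plexus genes 0 rose and 0 fell. Their part in the members' rise was not tested.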

How the data were processed

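Total RNA from CA1 punches of 79 rats was amplified in 2 rounds and hybridised to 1 array per animal, per the labels' protocols. The deposited signals are linear intensity, which the authors made with MAS5 (named in the submitters' processing notes). The probes' sequences and build: not given in the sources used here. The number of arrays limits the precision.

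Signals were taken as log2(signal + 15), 15 being the 10th percentile of all values rounded. The 59 control probe sets and the 40% of the rest with the lowest mean were left out. Contrasts came from limma 3.58.1, run under R 4.3.3 (eBayes with trend, two-sided, Benjamini-Hochberg over all 5244 probe sets, threshold 0.05): 1 mean per group over all 79 arrays, and for the age difference over treatments 63 arrays without B rats, treatment as a factor. Tables and figures used Python 3.11.15. Every probe set with 1 symbol among the 10 genes was reported, and of the other presynaptic genes the 4 with the smallest p, since none passed, beside counts. Probe sets of 1 gene were kept apart; lists used the one with the highest mean signal. Members and lists were chosen with earlier results of these data known. Alternatives covered the pseudocount, filter, scaling, variance model, array weights, control ratio, arrays of low correlation, arrays fitted and single arrays; the fits without cage controls were added after the data were seen. On simulated data 100 probe sets were changed by 0.5 and 100 by 1. The age fit over treatments recovered 27 and 90, with 8 false calls among 5044. The cage control fit recovered 0 and 2, the yoked fit 1 and 25 and the visible platform fit 0 and 6. The hidden platform fit recovered 4 and 42, and the fit of B rats 2 and 37. These fits missed most changes of 1, so a count of 0 in them does not show that a gene was unchanged. The simulation changed few probe sets, whereas the cage control fit on the data called 1198 of 5244. Its noise was drawn independently for each probe set and array, with no counterpart of the 14 arrays of low correlation. Its recovered and false calls therefore need not hold for the data.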

Additional observations from a re-analysis of the deposited data

Results flagged for a closer look

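Of 112 groups of 4 to 10 arrays examined over the 16 member probe sets tested, 18 had a highest or lowest array set apart from the rest by Dixon's criterion, where chance alone gives about 1 in 20 (5%). Of the 18, 16 lay on arrays of low correlation. Aged yoked rat 63 stood apart on 5 probe sets: lowest for Napa X89968_g_at (760.8), Sv2a (255.3), Syn2 M27925_at (47.1) and Vamp2 M24105_at (203.2), and highest for Syn1 (1869.2). Aged visible platform rat 68 was lowest for Sv2a (304.3) and Vamp2 M24105_at (558.1) and highest for Stx1a D10392_i_at (11440.9), and rat 67 of that group was highest for Syn1 (1771.5). Impaired rat 83 was lowest for Syp (252.6) and Stx1a D10392_i_at (702.3), and impaired rat 8 lowest for Napa X89968_at (84.6) and Stx1a D12519_s_at (126.4). Young visible platform rat 65 was lowest for Napa X89968_g_at (178.6) and Syp (317.5), and young hidden platform rat 39 lowest for Snap25 AB003991_at (601.9). On arrays of ordinary correlation, young yoked rat 59 was highest for Napa X89968_g_at (6910.8) and young yoked rat 60 highest for Stx1a D10392_i_at (13024.0). In no tested member did all aged rats lie above the young mean in 1 treatment and all below it in another.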

How the results depend on the processing

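No paired analysis was possible because animal numbers are unique and no group shares them. All counts here are member probe sets past the threshold, with the share of all probe sets past it in brackets where given. For the age difference over treatments (7) the count was 4 with no filter (2.20%), 2 with quantile normalization (1.89%) and 0 with median centring (1.47%). It was 0 without cage controls (0.648%) and 2 to 7 without single arrays (3.26% to 8.28%). For cage controls (7) it was 12 with array weights (46.6%) and 2 with the control ratio as a covariate (3.32%), and 6 to 7 without single arrays (14% to 28.2%). Array weights also gave 12 for the age by treatment term (35.3%), 3 for yoked (4.96%), 6 for visible platform (11.3%), 3 for hidden platform (4.27%) and 4 for B rats (13.5%), and 1 each for aged (10.6%) and young (1.49%) hidden against visible platform rats, all from 0. From 0, the count was 7 for yoked rats without arrays of low correlation, 1 for visible platform rats with the ratio, and 1 for B rats (1.01%) and for the age by treatment term (3.70%) with other arrays in the fit. Without single arrays the range was 0 to 1 for the age by treatment term (rats 65 and 63), yoked rats (rat 59) and young hidden against visible platform rats (rat 28). Over those single-array fits 0.0191% to 2.38%, 0% to 1.33% and 0% to 0.515% of all probe sets passed, in the same order. For young hidden platform against cage rats (7) the count was 4 with median centring (8.54%) and 3 with the ratio (2.63%). It was 3 without arrays of low correlation (5.82%) and 4 to 7 without single arrays (5.43% to 17.6%). No member changed sign among called values. Of all 5244 probe sets, 99 passed the age fit with quantile normalization, 77 with median centring, 1134 with weights, 727 without arrays of low correlation, 450 with all 79 arrays and 34 without cage controls, against 269. The causes were not tested.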
